A study of Ovis aries with 2 samples.

Results

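The insulin-like growth factor (IGF) axis was followed in skin cells of Hu sheep lambs with straight or curly wool. Its 6 genes were chosen by name as rows of the expression table, and all 6 of them, IGF1, IGF2, IGF1R, IGFBP3, IGFBP4 and IGFBP5, were present among 18161 genes. IGF1 and IGF2 are the secreted ligands. IGF1R is the receptor tyrosine kinase that binds both ligands and signals through insulin receptor substrates and phosphoinositide 3-kinase. IGFBP3, IGFBP4 and IGFBP5 are secreted binding proteins that hold the ligands outside the cell and change how much of them reaches the receptor. In the hair follicle the dermal papilla, a cluster of mesenchymal cells at the base of the bulb, is known as a source of IGF1, and the keratinocytes around it carry the receptor.

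Body-side skin of lambs labelled d3 was dissociated, and the skins of 3 straight wool lambs and of 3 curly wool lambs were pooled before loading. Suspensions of isolated follicles and of whole skin were mixed in each pool, and the mixture was run on the 10× Genomics platform as 1 single-cell library per wool type. The deposited table held 6452 straight cells with 57956122 unique molecular identifiers (UMIs) and 7585 curly cells with 77634565, at medians of 7373.5 and 7495 UMIs per cell. The libraries shared 70 barcodes, 1.08% of the straight cells. Because each wool type was a single pool, no spread between lambs could be measured and no test was possible. All intervals below are exact 95% intervals that cover counting error only, and a difference between the libraries compares these 2 libraries rather than the wool types.

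Cells were clustered without the genes of the IGF axis and its pathway, and clusters were named from marker genes as 12 classes, with 5 clusters left unnamed. In the class of dermal papilla cells (DPC-like), 9 of 11 papilla markers were detected in at least 10% of cells. CRABP1, a papilla marker, was present in 93.6% of straight and 91.3% of curly DPC-like cells, while CORIN and FGF10 stayed at 5.39 CPM or less, CPM being UMIs per 1000000 UMIs of the group. Of the markers of other types, PTPRC (immune) had 0 UMIs there in both libraries and KDR (endothelial) 1 UMI in each. CD34, also on the endothelial list, was found in 6.26% of straight and 12.5% of curly DPC-like cells. Markers on the dermal fibroblast list were present, with LUM at 161 and 198 CPM in 22.8% and 14.4% of cells, CLEC3B in 12.3% and 16.1%, and FBLN1 in 92.5% and 87.2%. The part of these markers in the results below was not tested. The class had 1278 straight cells (19.8% of the library) and 713 curly cells (9.40%), with medians of 5974.5 and 4261 UMIs per cell. IGFBP3 was among the genes the study used to name its papilla cluster, and it was not used to name cells here.

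IGF1, IGF2 and IGFBP3 were centred on the DPC-like cells, whereas IGF1R had no peak there and IGFBP5 was highest in pericyte-like cells. IGF1 and IGFBP3 were higher in DPC-like cells than in any of the other 15 groups in both libraries, 2 of the 5 members with at least 100 UMIs, against 4.9% of 13196 genes with as many. IGFBP4, which had fewer UMIs, was also highest there in both libraries, but its intervals overlapped those of the next groups. IGF1, IGF2 and IGFBP3 lay at least 4 times above the mean of the other groups in both libraries, 3 members, against 3.14% of the same genes. The IGF2 levels of straight pericyte-like and DPC-like cells overlapped in their intervals.

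IGF1 reached 395.5 CPM (381.8 to 409.6) in straight DPC-like cells and 416.6 CPM (394.4 to 439.8) in curly DPC-like cells. These cells held 3120 of the 3321 IGF1 UMIs of the straight library (93.9%) and 1315 of the 1469 of the curly library (89.5%). The next groups lay far below. In straight cells immune-like cells came second at 25.4 CPM (17.2 to 36.0), and their 31 UMIs came from no more than 10 cells. This class joined cluster 10 (284 straight cells, 425 KIT UMIs) and cluster 19 (18 straight cells, 0 KIT UMIs), so its level covers unlike cells. In curly cells endothelial-like cells came second at 28.9 CPM (18.7 to 42.7), with all 25 UMIs in 10 cells or fewer. From the second group down, each group's interval overlapped that of the group above it, so the lower order of IGF1 was not resolved. Suprabasal cells of the interfollicular epidermis (IFE), which should lack IGF1, gave the level that free RNA can leave. IGF1 was found there in 1.51% of straight and 0.501% of curly cells, at median depths of 12088 and 11695.5 UMIs, against 70.3% and 56.2% of the shallower DPC-like cells. With every cell thinned to 2000 UMIs, the DPC-like shares were 47.4% (44.5 to 50.3) and 49.3% (45.3 to 53.4), and 90 straight and 101 curly cells were too shallow to enter.

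IGF2, the ligand best known for fetal growth, had a wider reach across the dermal classes. Straight DPC-like cells had 1777 CPM (1747 to 1806) and curly ones 1409.9 CPM (1369 to 1452), and 94.8% and 80.9% of the cells had a UMI of it. Pericyte-like cells, the contractile cells around small vessels, had 1900.5 CPM (1765 to 2044) in the straight and 592 CPM (536 to 652) in the curly library. Endothelial-like cells held 563 CPM (523 to 605) and 533 CPM (486 to 584). These 3 classes stood above the named keratinocyte classes, where IGF2 lay between 2.23 and 15.6 CPM. Pericyte-like cells had 10.7 IGF2 UMIs per IGFBP3 UMI in the straight and 3.97 in the curly library, and DPC-like cells 0.325 and 0.204. The pericyte-like ratios rest on only 68 straight and 102 curly IGFBP3 UMIs. In the straight library 10 cells held 91.2% of them, and in the curly library the highest cell held 85 of the 102. The order of the pericyte-like ratios between the libraries was therefore not resolved.

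**Figure D1:**
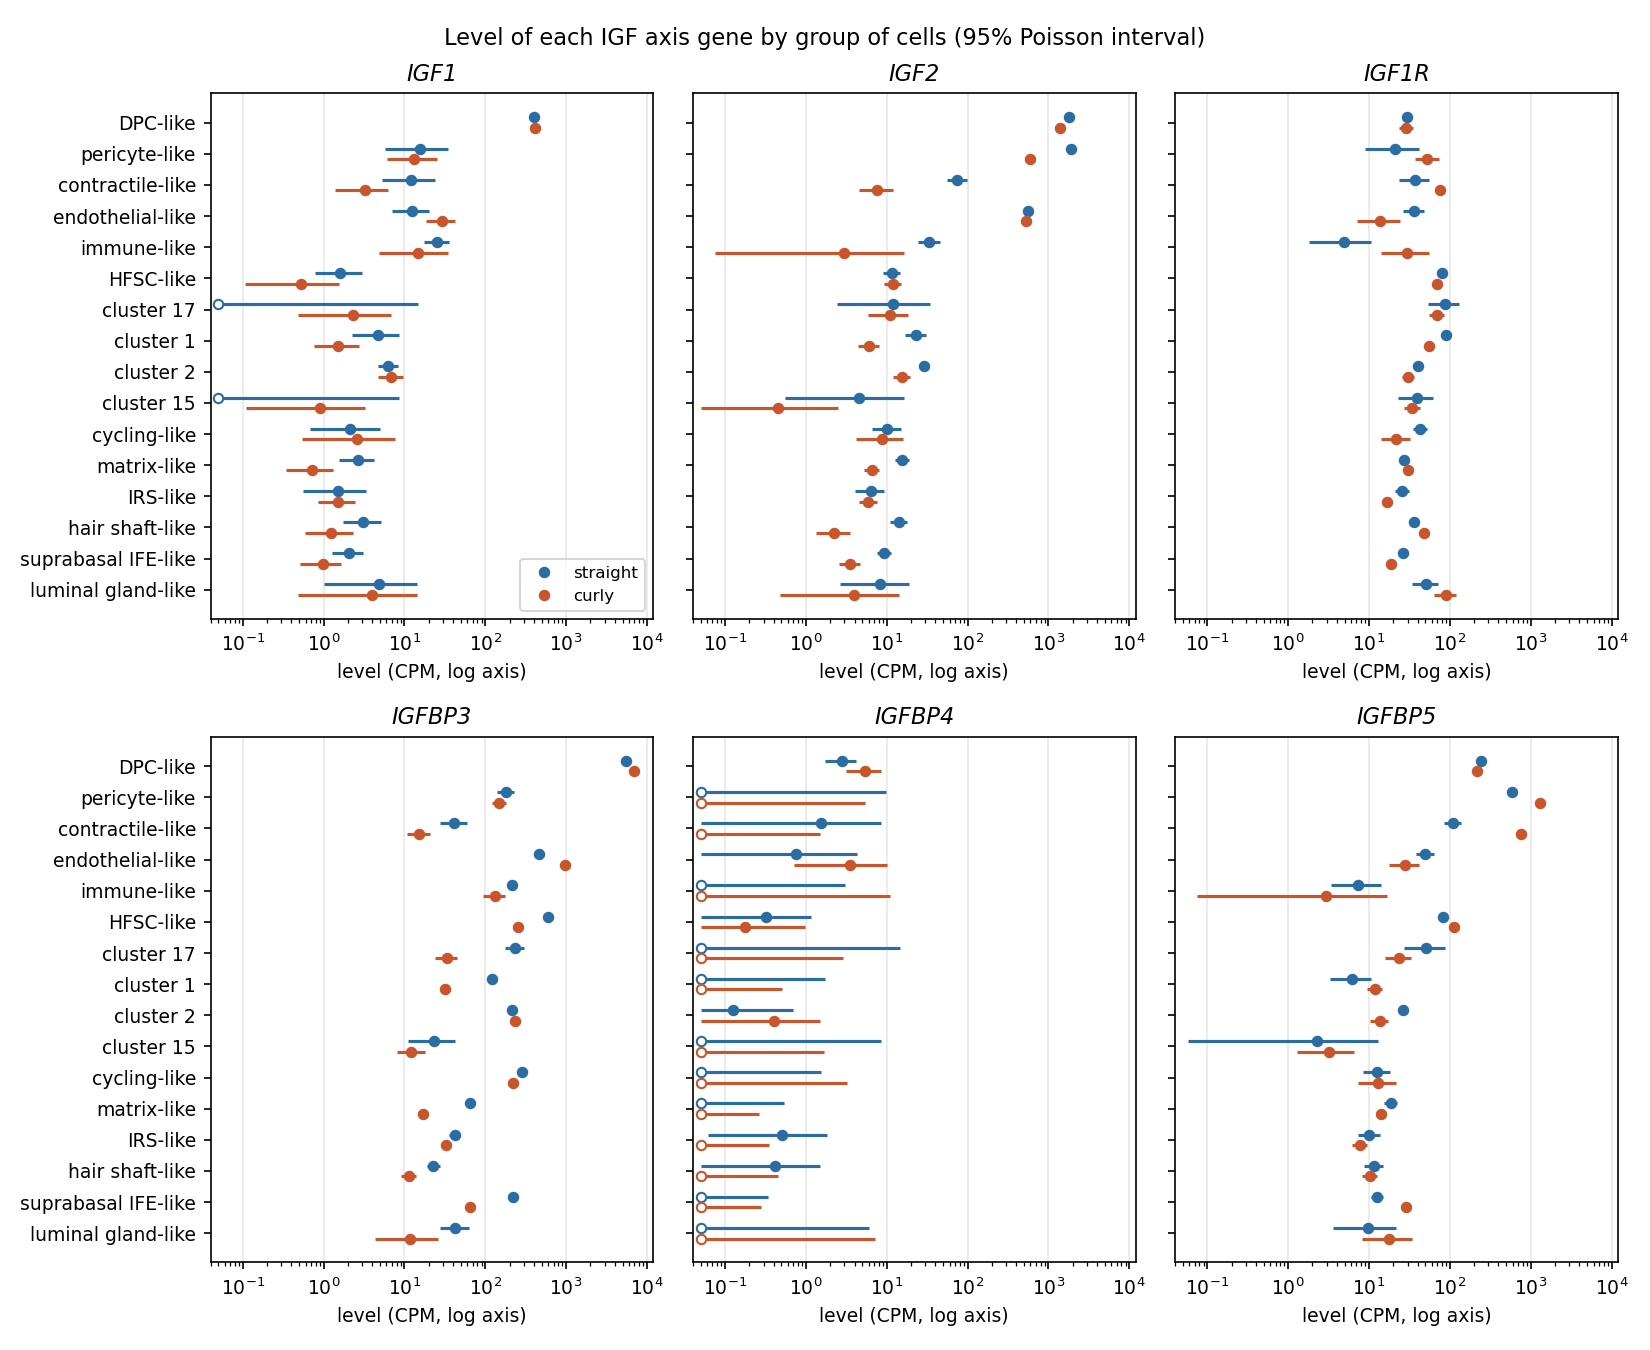
Level of the 6 IGF axis genes in 16 groups of cells, in CPM on a log axis, for the straight (blue) and curly (orange) library; bars are exact Poisson 95% intervals, cut at the left edge, and open points at the left edge are groups with 0 UMIs. IGF1, IGF2 and IGFBP3 stand high in DPC-like cells, IGF1R lies between 4.91 and 90.9 CPM in the groups of both libraries, and IGFBP5 is highest in pericyte-like cells at 589.8 and 1290.2 CPM.

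IGFBP3, the main carrier of IGFs in blood, was detected in almost every DPC-like cell. Straight DPC-like cells had 5473 CPM (5422 to 5525) and curly ones 6924 CPM (6832 to 7016), in 94.8% and 90.9% of cells. The class held 80.5% of all straight and 79.2% of all curly UMIs of IGFBP3. Outside the papilla it was highest in hair follicle stem cell-like (HFSC-like) cells of the straight and endothelial-like cells of the curly library. HFSC-like cells had 598 CPM (578 to 617) in the straight and 257 CPM (244 to 271) in the curly library. Endothelial-like cells had 458 CPM (422 to 496) and 962 CPM (897 to 1029), with a UMI in 32.3% and 28.9% of them. Of these UMIs, 10 cells held 61.7% of the straight and 63.4% of the curly UMIs.

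IGFBP3 was also found in 48.7% of straight and 25.7% of curly suprabasal cells, a class that served above as the background for IGF1. DPC-like cells had 0.0723 and 0.0602 IGF1 UMIs per IGFBP3 UMI in the straight and curly library, HFSC-like cells 0.00271 and 0.00204, and suprabasal cells 0.00931 and 0.0149. Keratinocyte classes lay on both sides of the papilla in this ratio, since hair shaft-like cells had 0.135 and 0.110. In matrix-like cells, the dividing keratinocytes of the bulb, the ratio was 0.0411 and 0.0417. These keratinocyte ratios rest on very low IGF1, 3.09 and 1.24 CPM in hair shaft-like cells. The suprabasal background of IGF1 was 2.05 CPM (1.29 to 3.11) and 0.97 CPM (0.52 to 1.66). IGF1 intervals of the hair shaft-like, matrix-like and HFSC-like classes overlapped it in both libraries, so their ratios were not set apart from background.

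IGF1R was present in every class, without a peak in the papilla. DPC-like cells had 29.8 CPM (26.1 to 33.9) in the straight and 28.8 CPM (23.2 to 35.4) in the curly library, less than the mean of the other groups in both, at 0.693 and 0.661 of it. HFSC-like cells had 79.5 CPM (72.6 to 86.8) and 68.8 CPM (62.2 to 75.9). Matrix-like cells, which lie against the papilla in the bulb, had 27.0 CPM (23.3 to 31.2) and 30.1 CPM (27.3 to 33.1). At the top of the order in straight cells were cluster 1, led by FABP4 and KRT6A, at 90.9 CPM and cluster 17, led by LCN2 and FGF5, at 86.8 CPM, and their intervals overlapped with each other and with that of HFSC-like cells. In curly cells luminal gland-like cells led at 88.6 CPM (64.6 to 118.6), and contractile-like cells, cluster 17 and HFSC-like cells followed with overlapping intervals. Cluster 1 scored best for the companion layer and cluster 17 for the outer root sheath. Each of these marker lists had only 2 genes in the data, too few for a name. Cluster 1 was shallow, at medians of 909 straight and 1026 curly UMIs per cell.

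Within the HFSC-like class, cluster 9, with more LGR5, had 138.5 CPM of IGF1R in straight and 81.9 CPM in curly cells, and cluster 6 had 68.9 and 55.0 CPM. Cluster 6 held most of the straight HFSC-like cells (552 of 781) and cluster 9 most of the curly ones (535 of 877).

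IGFBP4 was barely detected, with 31 UMIs in the straight and 23 UMIs in the curly library. Of these, 22 (71.0%) and 17 (73.9%) were in DPC-like cells, which gave 2.79 CPM (1.75 to 4.22) and 5.39 CPM (3.14 to 8.62). Suprabasal cells had 0 UMIs of IGFBP4 in 863 straight and 998 curly cells, which allows up to 0.280 CPM and 0.224 CPM (3 counts per library).

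IGFBP5, a binding protein of the extracellular matrix, was highest in pericyte-like cells in both libraries. Pericyte-like cells had 589.8 CPM (515 to 672) in the straight and 1290.2 CPM (1207 to 1378) in the curly library. Contractile-like cells, which express the smooth muscle genes ACTG2 and ACTA2, had 108 CPM (84.7 to 137) and 761 CPM (727 to 796). DPC-like cells had 245 CPM (234 to 256) and 215 CPM (200 to 232), and HFSC-like cells 81.8 CPM (74.8 to 89.2) and 112 CPM (103 to 121). The contractile-like class held 2.07% of all straight and 37.2% of all curly UMIs of IGFBP5, and the pericyte-like class 6.54% and 17.4%.

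**Figure D2:**
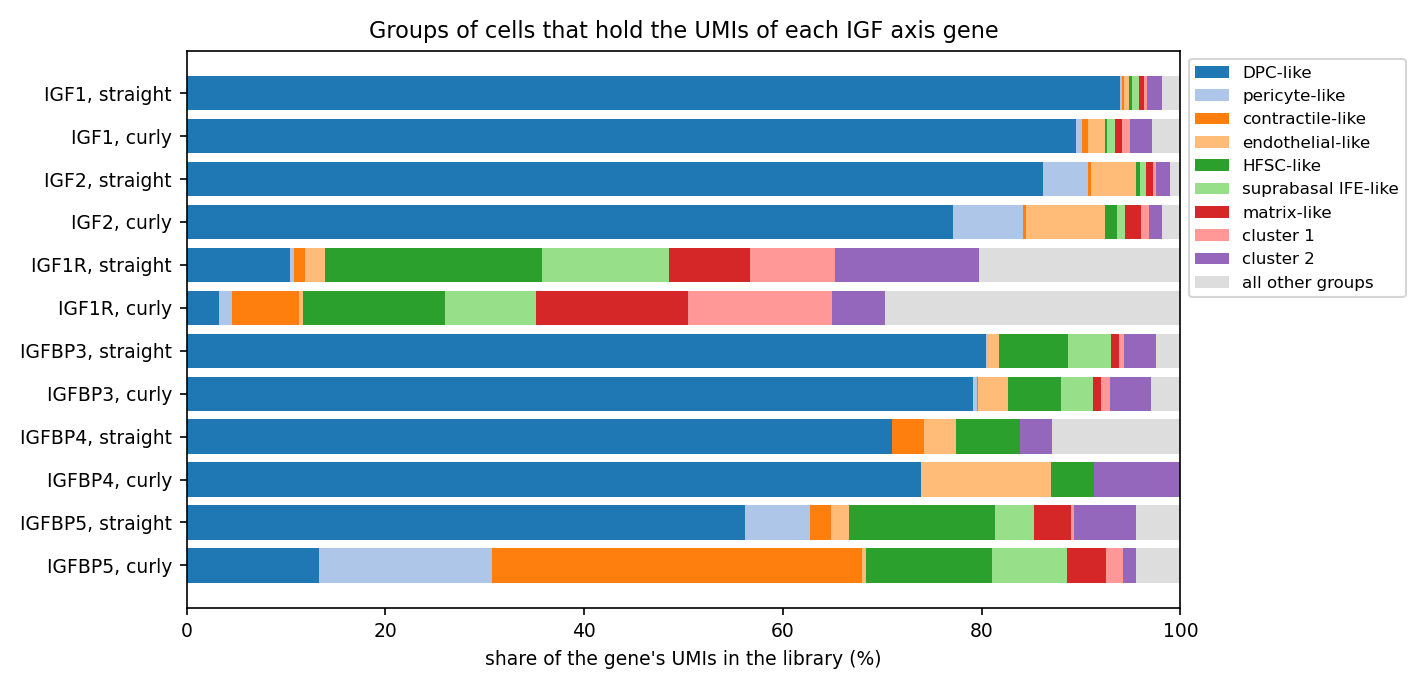
Share of the UMIs of each IGF axis gene, in percent of the gene's UMIs in a library, that each group of cells held in the straight and the curly library; 9 groups are coloured and the rest are grey. DPC-like cells held 93.9% and 89.5% of IGF1, but only 10.4% and 3.28% of IGF1R, and their share of IGFBP5 was 56.2% in the straight and 13.4% in the curly library.

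Summed over all cells, IGF1, IGF2 and IGFBP3 were more than 2 times lower in the curly library. IGF1 had 57.3 CPM in the straight and 18.9 CPM in the curly library, a log2 ratio of curly over straight of -1.60 (-1.69 to -1.51). IGF2 had 280.5 and 74.3 CPM, a log2 ratio of -1.92 (-1.96 to -1.87). IGFBP3 had 926 and 356 CPM, a log2 ratio of -1.38 (-1.40 to -1.36). The receptor and IGFBP5 were closer between whole libraries, with log2 ratios of -0.12 (-0.20 to -0.04) and 0.14 (0.08 to 0.21), and IGFBP4 had one of -0.85 (-1.70 to -0.03) on its few UMIs.

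The groups of cells took different shares of the UMIs in the libraries. DPC-like cells gave 13.6% of all straight and 4.07% of all curly UMIs. When the curly level of each group was weighted by the share of UMIs that the group had in the straight library, IGF1 came to 59.5 CPM against 57.3 CPM, a log2 ratio of 0.05. IGFBP3 came to 1056 CPM against 926 CPM, a log2 ratio of 0.19, and IGF2 to 214 CPM against 280.5 CPM, a log2 ratio of -0.39. With 1 pool per wool type, a difference in the papilla between lambs and a difference in how much papilla the dissociation released cannot be told apart.

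Within the DPC-like class, none of the 6 members differed by 2 times between the libraries, whereas 5.16% of 11290 genes with at least 20 UMIs in the class were at least 2 times higher and 8% at least 2 times lower in curly cells. For IGF1 the log2 ratio of curly over straight was 0.08 (-0.02 to 0.17), an interval that holds 0. IGF2 was lower by a log2 ratio of -0.33 (-0.38 to -0.28), and IGFBP3 higher by 0.34 (0.32 to 0.36). The mean over cells of the CPM of each cell gave 0.01 for IGFBP3 in place of 0.34. For IGFBP4 the log2 ratio was 0.95 (-0.05 to 1.93) on 22 and 17 UMIs, an interval that holds both 0 and a 2-fold difference. IGF1R had a log2 ratio of -0.05 (-0.41 to 0.31), and IGFBP5 one of -0.18 (-0.31 to -0.06). The IGF1R ratio became 1.67 once the suprabasal level of each library was subtracted. In straight cells that level, 26.7 CPM, lay inside the DPC-like interval of 26.1 to 33.9 CPM, so little was left to compare. IGF1R was present in every class, so the suprabasal level was no blank for it.

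IGFBP3 differed in opposite directions in the parts of the class. At a finer resolution, chosen after the values were seen, the class fell into a part led by CRABP1 and APOD (633 straight and 462 curly cells), a part led by FGF7 and EDN3 (599 and 200 cells), and a small fibroblast-like part (46 and 51 cells) with COL1A1 and LUM. FGF7 and EDN3 code for papilla signals that act on keratinocytes and on melanocytes. LUM was not limited to the fibroblast-like part. The CRABP1, APOD part held 946 of the 1273 straight and 344 of the 624 curly LUM UMIs of the class. LUM levels, straight before curly, were 324 and 186 CPM there and 3.27 and 1.64 CPM in the FGF7, EDN3 part. In the fibroblast-like part they were 3881 and 3266 CPM. Cells with LUM made up 37.1% and 13.6% of the CRABP1, APOD part. Whether LUM bears on the IGFBP3 values was not tested.

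In straight cells, IGFBP3 was higher in the CRABP1, APOD part at 8646 CPM (8539 to 8753) than in the FGF7, EDN3 part at 3657 CPM (3603 to 3711). In curly cells the order was turned, with 6510.2 CPM (6394 to 6628) and 7977 CPM (7819 to 8137). The log2 ratio of curly over straight was therefore -0.41 (-0.44 to -0.38) in the CRABP1, APOD part and 1.13 (1.09 to 1.16) in the FGF7, EDN3 part. APOD, which names the first part, turned in the same way, with 3020 CPM there against 1561 CPM in the FGF7, EDN3 part of straight cells, and 3494 against 4769.8 CPM in curly cells. In the FGF7, EDN3 part the log2 ratios of APOD and CRABP1 were 1.61 (1.56 to 1.66) and 0.97 (0.93 to 1.02), so the gene names of the parts did not hold alike in both libraries, and what this mix had to do with the IGFBP3 values was not tested. FGF7 and EDN3 themselves were higher in their part in both libraries. The medians of single cells had the same order. In the FGF7, EDN3 part the median cell had 2786 CPM (quartiles 1437 and 5259.9) in the straight and 7318 CPM (3672 and 11516) in the curly library. In the CRABP1, APOD part the median cell had 7306 CPM in the straight and 4906 CPM in the curly library.

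A split of the class by FGF7 UMIs gave like values, but it divided largely the same cells, since 89.6% of straight and 90% of curly cells of the FGF7, EDN3 part had an FGF7 UMI. Among DPC-like cells with an FGF7 UMI (682 straight and 257 curly cells), IGFBP3 had 4067 CPM in the straight and 8193 CPM in the curly library, a log2 ratio of 1.01 (0.98 to 1.04). Among DPC-like cells without one, with the fibroblast-like part left out (555 and 411 cells), it had 8685 and 6082 CPM, a log2 ratio of -0.51 (-0.55 to -0.48). IGFBP3 was 1 of the 6 members at least 2 times higher in curly cells of the FGF7, EDN3 part, against 5.21% of 9709 genes higher and 13.2% lower there. In the CRABP1, APOD part 0 of the 5 members with enough UMIs passed this fold, against 4.35% of 9447 genes higher and 6.33% lower. Straight cells of the FGF7, EDN3 part had a median depth of 8061 UMIs against 5742 in the curly ones, and the part of this gap in the result was not tested.

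In straight cells the ligands differed less between the parts than IGFBP3 did, and in curly cells they differed more. IGF1 had 458 CPM (434 to 483) in straight and 516 CPM (484 to 549.7) in curly cells of the CRABP1, APOD part, and 359.9 CPM (343 to 377) and 292 CPM (262 to 324) in the FGF7, EDN3 part. The log2 ratios were 0.17 (0.05 to 0.29) and -0.30 (-0.47 to -0.14), so that IGF1 and IGFBP3 moved in opposite directions in both parts. IGF2 had 1969 CPM (1930.1 to 2009) and 1923 CPM (1846 to 2002) in the FGF7, EDN3 part, a log2 ratio of -0.03 (-0.10 to 0.03). In the CRABP1, APOD part it had 1459 CPM and 1125 CPM, a log2 ratio of -0.37 (-0.45 to -0.30).

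IGFBP5 separated the parts in both libraries. The FGF7, EDN3 part had 347 CPM (331 to 364) in straight and 399 CPM (364 to 436) in curly cells, and the CRABP1, APOD part 57.6 CPM (49.2 to 67.0) and 52.9 CPM (43.0 to 64.5). The fibroblast-like part stood highest at 849 CPM (659 to 1076) and 1116 CPM (903 to 1364), at a median depth of only 899 and 856 UMIs per cell. In that part IGF2 had 130 UMIs in the straight and 22 in the curly library, and IGF1 23 and 4 UMIs, with all of the straight IGF1 UMIs in 10 cells or fewer.

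**Figure D3:**
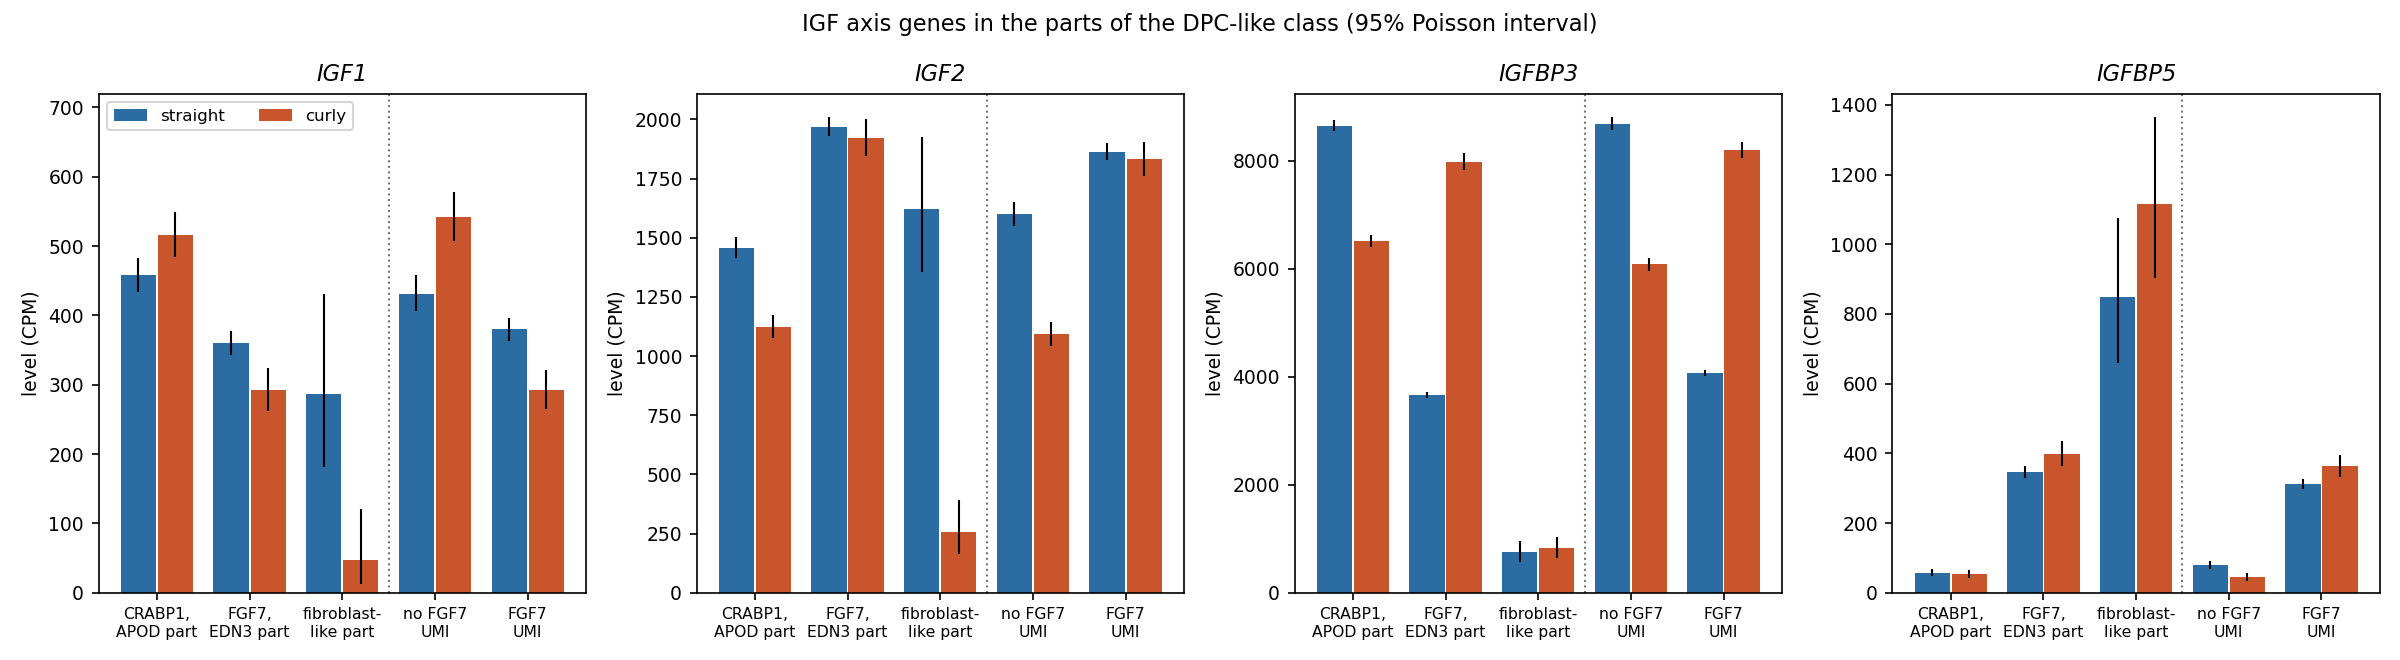
Level (CPM) of 4 IGF axis genes in the parts of the DPC-like class in the straight (blue) and curly (orange) library, by finer clusters left of the dotted line and by whether a cell had an FGF7 UMI right of it; bars start at 0 and black lines are exact Poisson 95% intervals. IGFBP3 is higher in curly cells of the FGF7, EDN3 part (3657 against 7977 CPM) and lower in curly cells of the CRABP1, APOD part (8646 against 6510.2 CPM).

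Most papilla cells carried a ligand and IGFBP3 together. With cells thinned to 2000 UMIs, IGF1 or IGF2 was found in 96.0% of 1188 straight and 91.5% of 612 curly DPC-like cells. IGFBP3 was found in 94.7% (92.5 to 96.4) of straight DPC-like cells with IGF1 and in 93.6% (91.4 to 95.4) of those without it. In curly cells these shares were 97.7% (95.3 to 99.1) and 92.6% (89.1 to 95.2). IGF2 was found in 88.6% (85.7 to 91.1) of straight cells with IGF1 and in 92.3% (89.9 to 94.3) of those without, and in curly cells in 76.5% (71.3 to 81.2) and 83.2% (78.6 to 87.2). In the straight CRABP1, APOD part the intervals lay apart, with IGF2 in 83.1% (78.2 to 87.3) of cells with IGF1 and 92.7% (89.2 to 95.4) of cells without it. In the curly CRABP1, APOD part, with 72.5% (66.1 to 78.3) and 83.2% (76.9 to 88.3), they overlapped. The FGF7, EDN3 part had the other order, with overlapping intervals. IGF2 was there in 94.2% and 93.0% of straight and in 89.7% and 86.6% of curly cells with and without IGF1. IGF1R was found in 5.15% (3.48 to 7.31) of straight and 5.30% (3.06 to 8.46) of curly DPC-like cells with IGF1.

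Outside the papilla, levels of the members differed by 2 times or more in many classes. Over the 11 other named classes, 46 pairs of a member and a class had at least 20 UMIs. Of these, 7 were at least 2 times higher and 16 at least 2 times lower in curly cells, against 5.46% and 6.7% of 95000 pairs of a gene and a class. Pairs of 1 gene are not independent of each other, and many rest on few UMIs. Over all 16 groups, the interval of IGFBP3 lay below 0 in 11 and above 0 in 3 groups, and that of IGF2 below 0 in 9 of 13 groups and above 0 in none of them.

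In keratinocytes IGFBP3 was lower in the curly library. Suprabasal cells had 220.5 CPM (212 to 229.6) in the straight and 65.0 CPM (60.7 to 69.4) in the curly library, a log2 ratio of -1.76 (-1.88 to -1.65). HFSC-like cells had a log2 ratio of -1.22 (-1.30 to -1.13). By cluster it was -0.85 (-0.96 to -0.75) in cluster 6 and -1.75 (-1.91 to -1.58) in cluster 9. Matrix-like cells had 64.3 CPM and 17.05 CPM, a log2 ratio of -1.92 (-2.15 to -1.69), which was -0.44 at the finer resolution and -0.73 without the cells scored as likely doublets. Cluster 2, led by DLK2 and FGFBP1, was the exception among these, with 213 and 234 CPM and a log2 ratio of 0.13 (0.02 to 0.24). The lower levels in keratinocytes stood beside the lower share of DPC-like UMIs in the curly library, 4.07% against 13.6%, and the part of free papilla RNA in it was not tested. In the suprabasal and matrix-like classes IGF2 was lower too, with log2 ratios of -1.41 (-1.94 to -0.90) and -1.25 (-1.67 to -0.84) on levels of at most 15.6 CPM, and the matrix-like value was 0.29 at the finer resolution and -0.02 without the cells scored as likely doublets.

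In the vascular and contractile classes the members moved in different directions. IGF2 was lower in curly pericyte-like cells, with 725 UMIs over 84 straight cells against 405 UMIs over 155 curly cells and a log2 ratio of -1.68 (-1.86 to -1.51). A UMI of it was found in 54.7% of straight and 42.1% of curly pericyte-like cells after thinning, and 10 cells held 62.9% of the straight UMIs. Markers that name the class were lower in curly cells as well, with RGS5 at 1730.1 and 269 CPM, KCNJ8 at 147 and 58.4 CPM, NOTCH3 at 204 and 140 CPM and PDGFRB at 76.0 and 54.1 CPM. The muscle genes DES, PLN and TCAP were among its leading genes, and a different mix of cells in the class and a different level per cell cannot be told apart for IGF2 and IGFBP5. IGFBP5 was higher in curly cells of the same class, with a log2 ratio of 1.13 (0.92 to 1.35) and shares after thinning of 20% and 67.5%, and 10 cells held 87.6% of its straight UMIs. IGF1R had a log2 ratio of 1.33 (0.20 to 2.64) there, on 8 and 36 UMIs. For IGFBP3 the log2 ratio was -0.26 (-0.71 to 0.21), but 1 curly cell held 85 of the 102 curly UMIs, and without likely doublets the ratio was 2.27.

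IGFBP5 was also higher in curly contractile-like cells. It was found in 30.9% of 81 straight and 84.7% of 274 curly cells, and in 13.1% and 69.4% after thinning, with a log2 ratio of 2.81 (2.47 to 3.17). Not all cells of this class held the genes that name it. Without integration of the libraries, 49 straight and 255 curly cells of the class were still contractile-like, and the other 32 straight and 19 curly cells had FGF7 at 901 and 738 CPM and 1 and 3 UMIs of ACTG2. In the 49 and 255 cells alone, IGFBP5 had 147 CPM (112 to 188) in the straight and 787 CPM (752 to 823) in the curly library, a log2 ratio of 2.42 (2.06 to 2.82). The IGF2 ratio of the class, -3.29 (-4.14 to -2.50), was carried by the other cells, since 44 of the 49 straight IGF2 UMIs lay in those 32 cells. In the 49 and 255 cells IGF2 had 5 and 9 UMIs, and its log2 ratio of -1.68 (-3.41 to 0.25) had an interval that held 0. IGF1R had a log2 ratio of 0.76 (0.07 to 1.52) there.

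Endothelial-like cells differed from the keratinocytes in IGFBP3, which was higher in the curly library with a log2 ratio of 1.07 (0.92 to 1.22). Averaged over cells, this ratio was 0.71. IGF1 had 16 and 25 UMIs there, a log2 ratio of 1.24 (0.28 to 2.24), and IGF1R 47 and 12 UMIs, a log2 ratio of -1.37 (-2.42 to -0.44). IGF2 had a log2 ratio of -0.08 (-0.25 to 0.09), an interval that holds 0. In suprabasal cells IGFBP5 had a log2 ratio of 1.21 (0.93 to 1.51), but 335 of the 388 curly UMIs lay in cluster 5, where 10 of 500 cells held 86.9% of them, and the mean over cells gave 0.26. In cluster 4, the other suprabasal cluster, the ratio was -1.37 (-1.87 to -0.89).

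**Figure D4:**
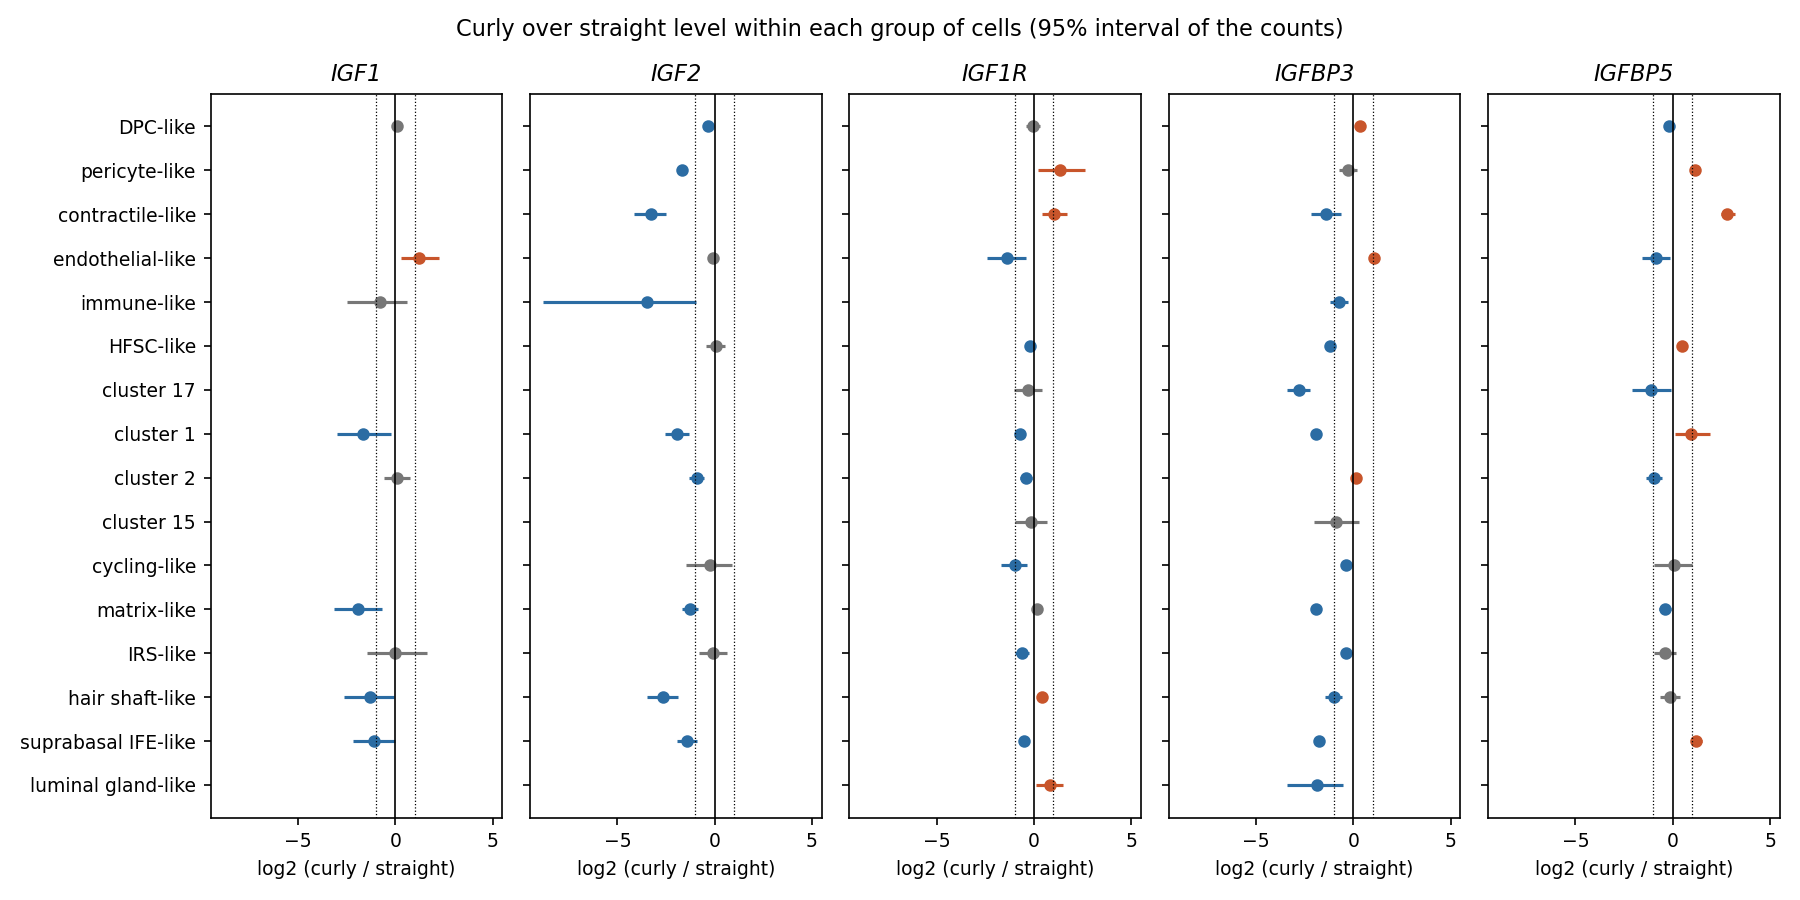
Log2 ratio of the curly over the straight level of 5 IGF axis genes in each group of cells, with exact 95% intervals of the binomial split; orange marks intervals above 0, blue intervals below 0, grey intervals that hold 0, and dotted lines mark a fold of 2. The DPC-like values lie between -0.33 and 0.34, while the interval of IGFBP3 is below 0 in 11 of 16 groups and IGFBP5 reaches 2.81 in contractile-like cells.

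The wider IGF pathway was followed in 37 genes of a list of 41. IGFBP1, ADAM28, STAT5B and IGF2BP1 were not analysed here. Of the 32 list genes with at least 100 UMIs, 4 were highest in DPC-like cells in both libraries, PAPPA2, LRP1, GRB14 and PIK3R1, against the same 4.9% of all genes. PAPPA2 is a metalloprotease that cleaves IGFBP3 and IGFBP5, and 93.6% of its straight and 95.5% of its curly UMIs lay in DPC-like cells. LRP1, an endocytic receptor that also binds IGFBP3, had 77.8 and 103.6 CPM there, and GRB14, an adaptor that restrains insulin receptor signalling, 12.4 and 5.07 CPM. PIK3R1, the regulatory subunit of phosphoinositide 3-kinase, had 63.5 and 88.7 CPM.

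Between the libraries, 3 of the 32 list genes with at least 20 UMIs in DPC-like cells were at least 2 times higher and 2 at least 2 times lower in curly cells, with a median log2 ratio of -0.04 against -0.06 over all genes of the class. These counts compare with 5.16% and 8% of all genes. PAPPA2 had 20.3 CPM (17.3 to 23.7) in straight and 80.8 CPM (71.2 to 91.3) in curly cells, a log2 ratio of 1.99 (1.70 to 2.29), and was found in 10.2% of straight and 25.1% of curly cells. Its log2 ratio was 2.22 (1.82 to 2.64) in the CRABP1, APOD part and 1.23 (0.72 to 1.73) in the FGF7, EDN3 part, so it did not follow IGFBP3, which turned direction between them. IRS1, the adaptor below the receptor, had 5.70 and 17.7 CPM, and GHR, the growth hormone receptor, 5.07 and 13.6 CPM, with log2 ratios of 1.64 (1.04 to 2.24) and 1.43 (0.77 to 2.08). IGFALS, the acid-labile subunit of the blood IGF complex, had 36 and 3 UMIs, and GRB14 a log2 ratio of -1.29 (-2.16 to -0.52).

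The remaining binding proteins IGFBP2, IGFBP6 and IGFBP7 were highest outside the papilla. IGFBP2 was highest in contractile-like cells of the straight library at 863 CPM and in cluster 17 of the curly library at 612 CPM. In curly contractile-like cells it had 186 CPM, a log2 ratio of -2.22 (-2.40 to -2.04) beside the opposite ratio of IGFBP5. Unlike that of IGFBP5, the IGFBP2 ratio was not calculated for the 49 straight and 255 curly cells that stayed contractile-like without integration. IGFBP7 was highest in pericyte-like cells, at 330.3 and 177 CPM, and IGFBP6 in cluster 17, at 74.96 and 91.8 CPM. The straight value of cluster 17 came from only 26 cells, and DPC-like cells had 60.7 and 35.8 CPM of IGFBP6. STC1, a secreted inhibitor of pappalysins, was highest in endothelial-like cells at 397 and 282 CPM. The related receptors INSR and IGF2R had 22.8 and 12.04 CPM in straight and 18.7 and 6.97 CPM in curly DPC-like cells. HTRA1, a secreted protease that cleaves IGF binding proteins, had 181 and 178 CPM in DPC-like cells, a log2 ratio of -0.02 (-0.17 to 0.12), while in HFSC-like cells it had 115 and 278 CPM, a log2 ratio of 1.27 (1.14 to 1.40).

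**Figure D5:**
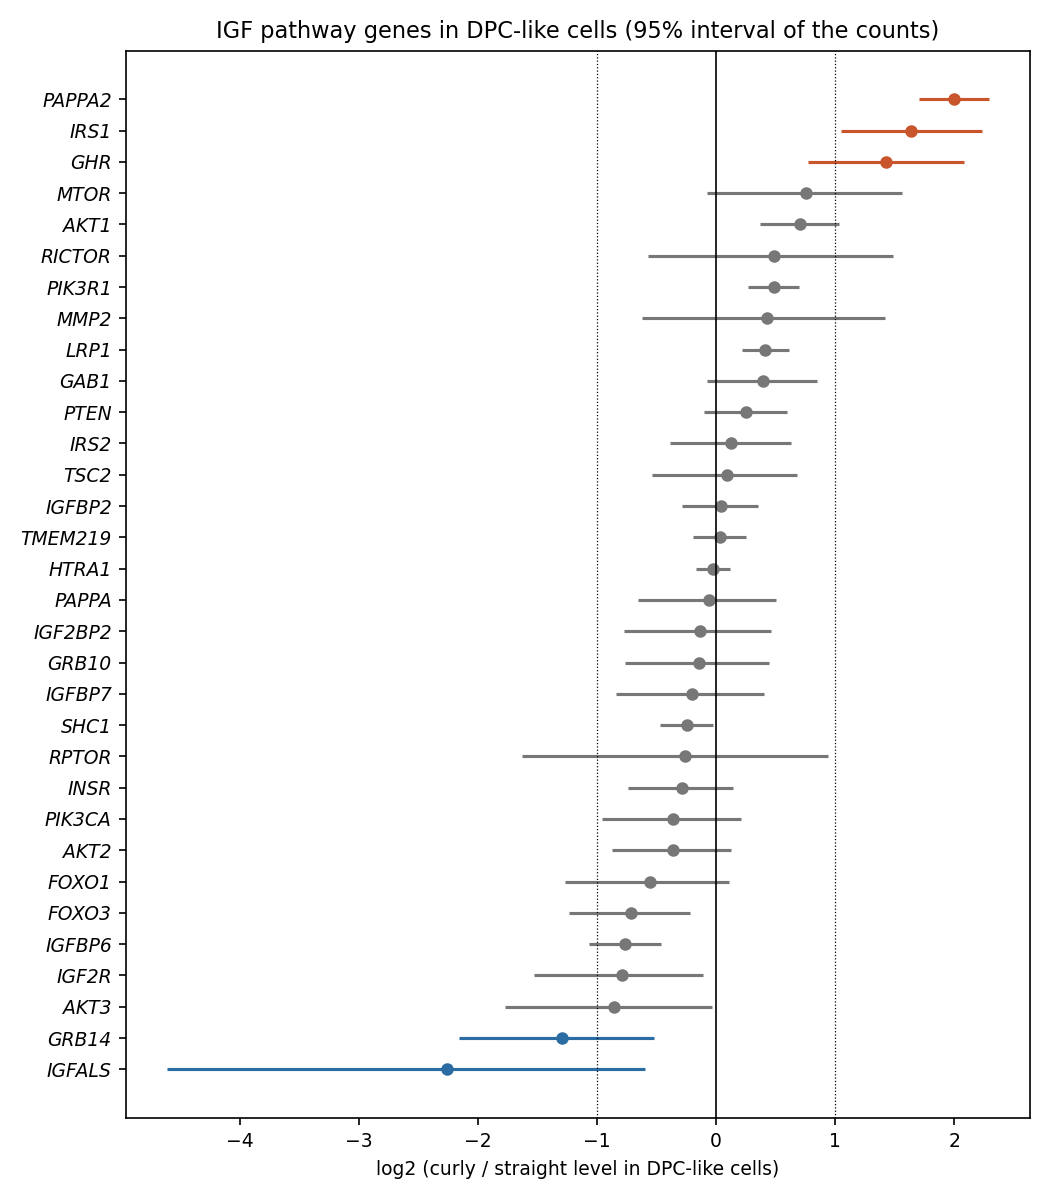
Log2 ratio of the curly over the straight level of 32 IGF pathway genes in DPC-like cells, with exact 95% intervals of the binomial split; dotted lines mark a fold of 2, and the genes past it are orange (higher) or blue (lower). PAPPA2, IRS1 and GHR lie above a fold of 2 in curly cells, and GRB14 and IGFALS below it.

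The genes most like each member were taken over 37 points, each a cluster of 1 library with at least 25 cells, as Pearson's r of log2(CPM + 10) among 11986 genes. The points share libraries and depths, so r is a description. For IGF1 they were NDNF (0.95), GDF10 (0.95) and MC4R (0.94), and for IGF2 EBF1 (0.96), TMEM100 (0.96) and WFDC1 (0.96). For IGFBP3 they were IL1R1 (0.90), UXS1 (0.84) and PLAC9 (0.83), and for IGFBP5 AEBP1 (0.92), P4HTM (0.89) and MAP3K20 (0.89). IGF1R had looser matches, SMOX (0.79) and ATF5 (0.73) among them, and IGFBP4 had too few UMIs for this measure. Among the members themselves the pair IGF1 and IGF2 had an r of 0.81, IGF1 and IGFBP3 one of 0.72, IGF2 and IGFBP5 one of 0.64, and IGF1 and IGF1R one of -0.19.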

How the data were processed

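Single-cell libraries of 1 straight and 1 curly pool were read from 1 table of cells. Per the labels, the authors aligned and counted reads with Cell Ranger 3.0.2 and filtered cells, and each deposited value is a natural log, ln(1 + x), where x is a UMI count brought to a cell total of 10000. From these values whole UMIs were calculated back, and 100% of 28552149 values above 0 were whole within 0.01. The table held 14037 cells, while the series text states 15830.

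The libraries were joined by anchors (Seurat 5.3.0, R 4.3.3) with 2000 variable genes, genes of the IGF axis and pathway left out, and 30 dimensions. The resolution of 0.3, the lowest with at least 19 clusters, gave 20 clusters. A cluster took a name from markers (score of at least 1.5, at least 3 markers in at least 10% of cells). Doublets were kept in the main values. Scrublet's own threshold marked 0.442% of cells, so an alternative left out the highest 6% of scores (842 cells). UMIs were summed per class and library and divided by all UMIs of the class. Classes with at least 25 cells in each library and genes with at least 20 UMIs in a class were compared. Levels have exact Poisson, shares Clopper-Pearson and ratios binomial split 95% intervals. Named genes were the members, the pathway list, the 3 genes most like each member and class markers, and others were named after their values were seen. One gene that this rule names for IGF1R is not reported here. Members and lists were chosen with earlier results of these data known. The analysis used Python 3.11.15 and the calculations were tested on simulated data.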

Additional observations from a re-analysis of the deposited data

Results flagged for a closer look

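The log2 ratio of curly over straight cells went opposite ways between classes for several members, with intervals on opposite sides of 0. None of these differences was tested, since each wool type was 1 library, and the pairs were picked as extremes. For IGFBP3 the FGF7, EDN3 part and the CRABP1, APOD part of the DPC-like class differed by 1.53 on the log2 scale. For IGFBP3 the endothelial-like and matrix-like classes differed by 2.99, although the matrix-like ratio shrank from -1.92 to -0.44 at the finer resolution. For IGF1 the same 2 classes differed by 3.13, on 16 and 25 UMIs in endothelial-like and 18 and 10 UMIs in matrix-like cells. For IGF1R the pericyte-like and endothelial-like classes differed by 2.70, on 8 and 36 UMIs in pericyte-like and 47 and 12 UMIs in endothelial-like cells.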

How the results depend on the processing

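No paired analysis was possible because each wool type had 1 library. The count of members highest in DPC-like cells was 2 under every alternative tried except means of the deposited log values, where it was 3. No member differed by 2 times between the DPC-like cells of the libraries, but 1 did without integration, 1 with the mean of per-cell CPM, 1 with the suprabasal level subtracted and 1 at a fold of 1.5. The first pair was IGFBP4, with log2 ratios of 1.01 and 1.16. The 1 with the suprabasal level subtracted was IGF1R, for which the straight suprabasal level lay inside the straight DPC-like interval. Of the pathway genes 5 passed the fold, against 9 with the suprabasal level subtracted, 11 at a fold of 1.5 and 4 to 7 otherwise. In the other classes 23 ratios of members were past 2 times, and 16 to 29 under the alternatives. Over 52 ratios, 23 were past 2 times, of which 22 kept their direction under every alternative processing that gave a value and 13 also stayed past 2 times. The exception in direction was IGF2 in matrix-like cells, with 0.29 at the finer resolution in place of -1.25, and the cause was not tested. TMM scaling moved the DPC-like class by -0.0002 and the pericyte-like class by -0.25 on the log2 scale, and IGF2 in pericyte-like cells was then -1.43. Depth limits IGFBP4 everywhere and IGF1R and IGF1 in the small classes.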
